A study of Mus musculus with 104 samples.

Results

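Splicing factors are the proteins that recognise intron ends and carry out intron removal. Here they are the mouse genes whose single annotated symbol begins with Srsf, Hnrnp, Sf3a, Sf3b, Snrp, U2af or Prpf. The rule found 60 genes among 17097 genes with 1 annotated symbol, each represented by the probe set with the highest mean over all arrays. Of these, 59 were above the filter on dim probe sets (a mean log2 value of 4.50) and were tested among 11853 genes. The remaining gene, Srsf12, had a mean log2 value of 3.56 and was not tested. The tested genes were 8 Srsf, 17 Hnrnp, 3 Sf3a, 6 Sf3b, 12 Snrp, 2 U2af and 11 Prpf genes. Srsf5, Srsf7 and Hnrnpu were not analysed here.

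Muscle stem cells (satellite cells) of Per1-Venus reporter mice on the C57BL/6J background were profiled on Affymetrix arrays, 1 sample per array, in 4 arms. They were adult mice on control diet (22 arrays), adult mice under calorie restriction (CR, 32 arrays), aged mice on control diet (24 arrays) and aged mice under CR (26 arrays). All mice carried the reporter, and CR meant 30% less food for 25 weeks, after 3 weeks in which food was lowered by 10% a week. Adult mice entered at 19 to 29 weeks of age and aged mice at 55 to 69 weeks. Arrays were taken at 6 times, T0 to T20 in steps of 4 h, with 4 to 6 arrays per arm and time except adult control T20, which had 1. The age field of all 22 adult control arrays reads 83 to 97 weeks, as in the aged mice, and that arm was taken from the titles. In the 32 adult CR arrays the field reads 47 to 57 weeks. Whether replicates came from separate mice rests on their titles, and p-values otherwise measure the spread between arrays. RNA from 25 ng per sample was amplified in 17 cycles.

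Introns are removed by the spliceosome, which is built from small nuclear RNPs (snRNPs). The Snrp genes encode the Sm proteins that form the core of the snRNPs and proteins specific to the U1 or U2 snRNP (such as Snrpa and Snrpa1), SF3a and SF3b anchor the U2 snRNP at the branch point, U2AF marks the 3′ splice site, and PRPF proteins build and activate the complex. SR proteins (Srsf) mostly promote and hnRNP proteins often repress the use of exons, and in muscle stem cells such regulators act on the isoform switches that accompany activation and differentiation.

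Markers of the labelled cell type were present. All 14 muscle stem cell markers listed were above the filter, and Pax7, the defining transcription factor, averaged 9.84 on the log2 scale with a lowest array of 8.57. Markers of other cells were also present. The mean over 6 Schwann cell markers ranged over single arrays from 7.78 to 9.19 in adult control, 7.96 to 9.11 in adult CR, 8.27 to 9.81 in aged control and 8.32 to 9.31 in aged CR. The mean over 6 fibroadipogenic progenitor markers ranged from 9.62 to 10.61, 9.53 to 10.27, 9.41 to 10.49 and 9.61 to 10.2 in the same order, that over 5 pericyte and smooth muscle markers from 8.52 to 9.91, 8.09 to 9.67, 8.93 to 10.7 and 8.62 to 10.2, and that over 6 myofibre markers from 4.87 to 9.16, 5.40 to 8.23, 5.01 to 8.17 and 5.07 to 7.74. In these bulk samples fewer cells of a type and less RNA per cell cannot be told apart.

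Rhythms were called when the cosine and sine terms of a 24 h curve passed limma's moderated F test at an adjusted p under 5%. Amplitude is the distance from the day mean to the fitted peak on the log2 scale. In adult control, 4 of 59 splicing factors (6.78%) were called, against 10.6% of all genes. Adult CR had 17 (28.8%) against 22.4%. In aged control there were 8 (13.6%) against 10.8%, and in aged CR 10 (16.9%) against 16.5%. The members' shares lay on either side of the background and close to it in aged CR. The aged control count was 3 without the T20 arrays, and the adult control count 9 with the mean of a gene's probe sets. Shares of all genes in those settings are not given here. Over the arms together, 22 splicing factors (37.3%) were rhythmic in at least 1 arm, against 38.2% of all genes, and 37 in none. Rhythms in at least 3 arms were found for 6 members (10.2%), against 5.37% of all genes.

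These 6 were Prpf18, Prpf38a, Prpf8, Hnrnpul2, Hnrnpr and Hnrnpl. Without the T20 arrays, the aged control calls of Prpf18, Prpf8 and Hnrnpl and the adult CR call of Hnrnpul2 were lost. With the mean of a gene's probe sets, Hnrnpl was lost in adult CR and aged control, and Hnrnpul2 in aged control. Promoter sequence is shown for those of the 6 with an entry, since they recurred across arms in the main fit. RefSeq's table for GRCm38.p6 held 52 of the 60 members. Prpf18 and Hnrnpul2 had no entry. The lines give the 250 bases before the annotated start site, 5′ to 3′ on the gene's strand, at chr11:75486527-75486776 (+) for Prpf8, chr4:108579337-108579586 (-) for Prpf38a, chr7:28810640-28810889 (+) for Hnrnpl and chr4:136310692-136310941 (+) for the first of Hnrnpr's 2 starts. Capitals mark a match to a searched motif.
Prpf8: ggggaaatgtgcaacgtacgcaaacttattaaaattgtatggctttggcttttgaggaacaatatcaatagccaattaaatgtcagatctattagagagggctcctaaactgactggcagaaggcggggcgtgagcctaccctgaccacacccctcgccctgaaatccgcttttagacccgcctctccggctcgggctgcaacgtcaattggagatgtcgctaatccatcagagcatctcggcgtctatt
Prpf38a: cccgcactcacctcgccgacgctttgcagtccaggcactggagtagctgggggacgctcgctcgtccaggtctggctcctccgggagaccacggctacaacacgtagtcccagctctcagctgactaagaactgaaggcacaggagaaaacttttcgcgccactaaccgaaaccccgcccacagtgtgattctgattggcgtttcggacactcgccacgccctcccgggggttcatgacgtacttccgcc
Hnrnpl: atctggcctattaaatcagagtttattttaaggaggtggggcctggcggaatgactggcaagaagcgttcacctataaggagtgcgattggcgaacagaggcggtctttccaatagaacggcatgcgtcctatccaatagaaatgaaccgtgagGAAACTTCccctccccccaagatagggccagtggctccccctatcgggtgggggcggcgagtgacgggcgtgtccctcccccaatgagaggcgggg
Hnrnpr: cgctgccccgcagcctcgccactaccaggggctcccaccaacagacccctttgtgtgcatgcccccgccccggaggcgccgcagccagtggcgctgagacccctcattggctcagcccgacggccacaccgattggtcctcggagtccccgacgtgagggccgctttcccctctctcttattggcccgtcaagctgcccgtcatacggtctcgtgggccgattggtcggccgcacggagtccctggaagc

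Windows of 300 bases, reaching 50 bases past the start, were searched on both strands for the E-box CACGTG, the D-box as TTATGTAA or TTACGTAA, the ROR core AGGTCA, the CRE TGACGTCA and the paired heat shock unit GAANNTTC. The only match in the 5 windows of Prpf8, Prpf38a, Hnrnpl and Hnrnpr was a heat shock pair in Hnrnpl, a motif held by 7.86% of all 32851 windows. Among the 70 windows of all members, some of which overlap within a gene, 9 (12.9%) held an E-box, against 7.15% of all windows. Those 9 belong to 7 genes, Hnrnpa3, Hnrnpd, Hnrnph2, Hnrnpm, Prpf3, Prpf40b and Snrpa, of which Hnrnpd and Snrpa were rhythmic in an arm. The ROR core was in 8 member windows (11.4% against 16.3% of all), the CRE in 2 (2.86% against 1.79%) and the heat shock pair in 7 (10.0% against 7.86%). The D-box as TTACGTAA was in 2 windows, both of Hnrnpa2b1 (0.119% of all windows), and as TTATGTAA in 0 (0.938% of all). A match describes letters in the window and is not shown to be a site.

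Prpf18, a factor of the second step of splicing, was rhythmic in all 4 arms, as 1.83% of all genes were. Its highest values in aged CR came at T4, where the 4 arrays read 6.31, 6.84, 6.88 and 7.04. At T12 the 5 arrays of that arm read 5.30, 5.56, 5.60, 5.93 and 6.25, all below those of T4. The fitted amplitude was 0.47 ± 0.10 (SE) with a peak at 1.97 ± 0.84 h, a 1.93-fold range from trough to peak (limma, adjusted p = 0.00155). In aged control the high and low times were others. Its 4 arrays at T8 read 6.55, 6.67, 6.68 and 6.73, and those at T0 read 5.34, 5.67, 5.78 and 6.15. There the amplitude was 0.38 ± 0.11 and the peak at 6.86 ± 1.07 h (limma, adjusted p = 0.0314). T0 thus had the lowest time mean in aged control, while the 5 aged CR arrays at T0 lay between 6.22 and 6.62, above those 4. The difference in rhythm between the aged arms was not called (limma, adjusted p = 0.138). The adult arms peaked in between, at 3.97 ± 1.18 h in control (amplitude 0.39 ± 0.11) and at 2.81 ± 1.28 h in CR (amplitude 0.28 ± 0.09), with adjusted p = 0.0256 and 0.0495 in limma. The adult CR call was lost in 19 of 32 omissions of a single array (adjusted p up to 0.0949), and the aged control call in 7 of 24 (up to 0.085).

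Prpf8, the scaffold at the catalytic centre of the spliceosome, was rhythmic in adult CR, aged control and aged CR. In aged CR the 5 arrays at T0 read 9.59, 9.68, 9.70, 9.75 and 9.98, and the 4 at T8 read 8.99, 9.10, 9.14 and 9.43. The groups did not overlap, and the amplitude was 0.26 ± 0.05 with a peak at 20.9 ± 0.66 h (limma, adjusted p = 7.96e-05). In aged control the arrays at T0 read 9.49, 9.65, 9.66 and 9.79 against 9.26, 9.29, 9.29 and 9.44 at T12, again without overlap. That curve had an amplitude of 0.17 ± 0.05 and a peak at 0.918 ± 1.06 h (adjusted p = 0.0294 in limma). The call was lost without aged control T0 replicate 4, T12 replicate 1, T12 replicate 3 or T16 replicate 4 (adjusted p up to 0.0657). Adult CR had an amplitude of 0.21 ± 0.04 and a peak at 0.24 ± 0.74 h (limma, adjusted p = 0.000214). Adult control gave an amplitude of 0.13 ± 0.05 that did not pass (adjusted p = 0.127).

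Prpf38a, a factor needed to activate the assembled spliceosome, was rhythmic in adult control, adult CR and aged control, with nearly the same curve. Its adult control arrays read 7.65, 7.80, 7.95 and 8.36 at T0 and 6.99, 7.22, 7.23 and 7.30 at T16, with no overlap. Its aged control arrays read 7.95, 7.98, 8.07 and 8.20 at T0 against 7.28, 7.52, 7.66 and 7.77 at T16. Amplitudes in the 3 arms were 0.30 ± 0.07, 0.29 ± 0.06 and 0.27 ± 0.07, and peaks were at 2.25, 2.07 and 1.26 h (limma, adjusted p = 0.00621, 0.00069 and 0.0176). In aged CR the amplitude was 0.15 ± 0.07 with an adjusted p = 0.209, and the difference in rhythm from aged control was not called.

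Hnrnpul2, an hnRNP U-like RNA binding protein, and Hnrnpl, which binds CA-rich RNA and regulates exon use, were rhythmic in the same 3 arms but at different times. In aged control, Hnrnpul2 read 7.35, 7.57, 7.63 and 7.70 at T4 and 6.66, 6.72, 6.73 and 6.79 at T20. Hnrnpl read 10.08, 10.16, 10.18 and 10.20 at T20 of that arm and 9.56, 9.68, 9.72 and 9.74 at T12. Neither pair of groups overlapped. Hnrnpul2 peaked at 7.02, 6.54 and 6.31 h in adult CR, aged control and aged CR, with amplitudes of 0.25 ± 0.06, 0.37 ± 0.07 and 0.34 ± 0.07. Hnrnpl peaked at 23.3, 21.8 and 23.6 h in those arms, with amplitudes of 0.12 ± 0.03, 0.17 ± 0.03 and 0.14 ± 0.03. The largest of these 6 adjusted p-values in limma was 0.0071. In adult control Hnrnpl had a peak at 21.1 h and an amplitude of 0.12 ± 0.04 that did not pass (adjusted p = 0.0686). A second probe set of Hnrnpl was called in aged CR (peak at 22.3 h) and not in adult CR (16.9 h) or aged control (22.6 h). A second one of Hnrnpul2 was called in adult CR (peak at 10.8 h) and not in aged control (21.6 h) or aged CR (8.22 h).

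Hnrnpr, an RNA binding protein known from neuronal mRNA transport, peaked at 3.99 ± 0.97 h in adult CR and at 3.32 ± 0.93 h in aged control, but at 23.3 ± 0.88 h in aged CR. At T8, 1 of 6 times, its arrays read 8.68, 8.69, 8.81 and 8.86 in aged control and 8.02, 8.22, 8.44 and 8.62 in aged CR. The difference in rhythm between the aged arms was not called (limma, adjusted p = 0.239). Amplitudes were 0.21 ± 0.05, 0.25 ± 0.06 and 0.26 ± 0.06 in the 3 arms (limma, adjusted p = 0.00701, 0.0105 and 0.00195). Adult control gave 0.20 ± 0.07 with an adjusted p = 0.0766. A second probe set was called in adult CR (peak at 5.03 h) and aged control (4.87 h), but not in aged CR (1.12 h).

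**Figure D1:**
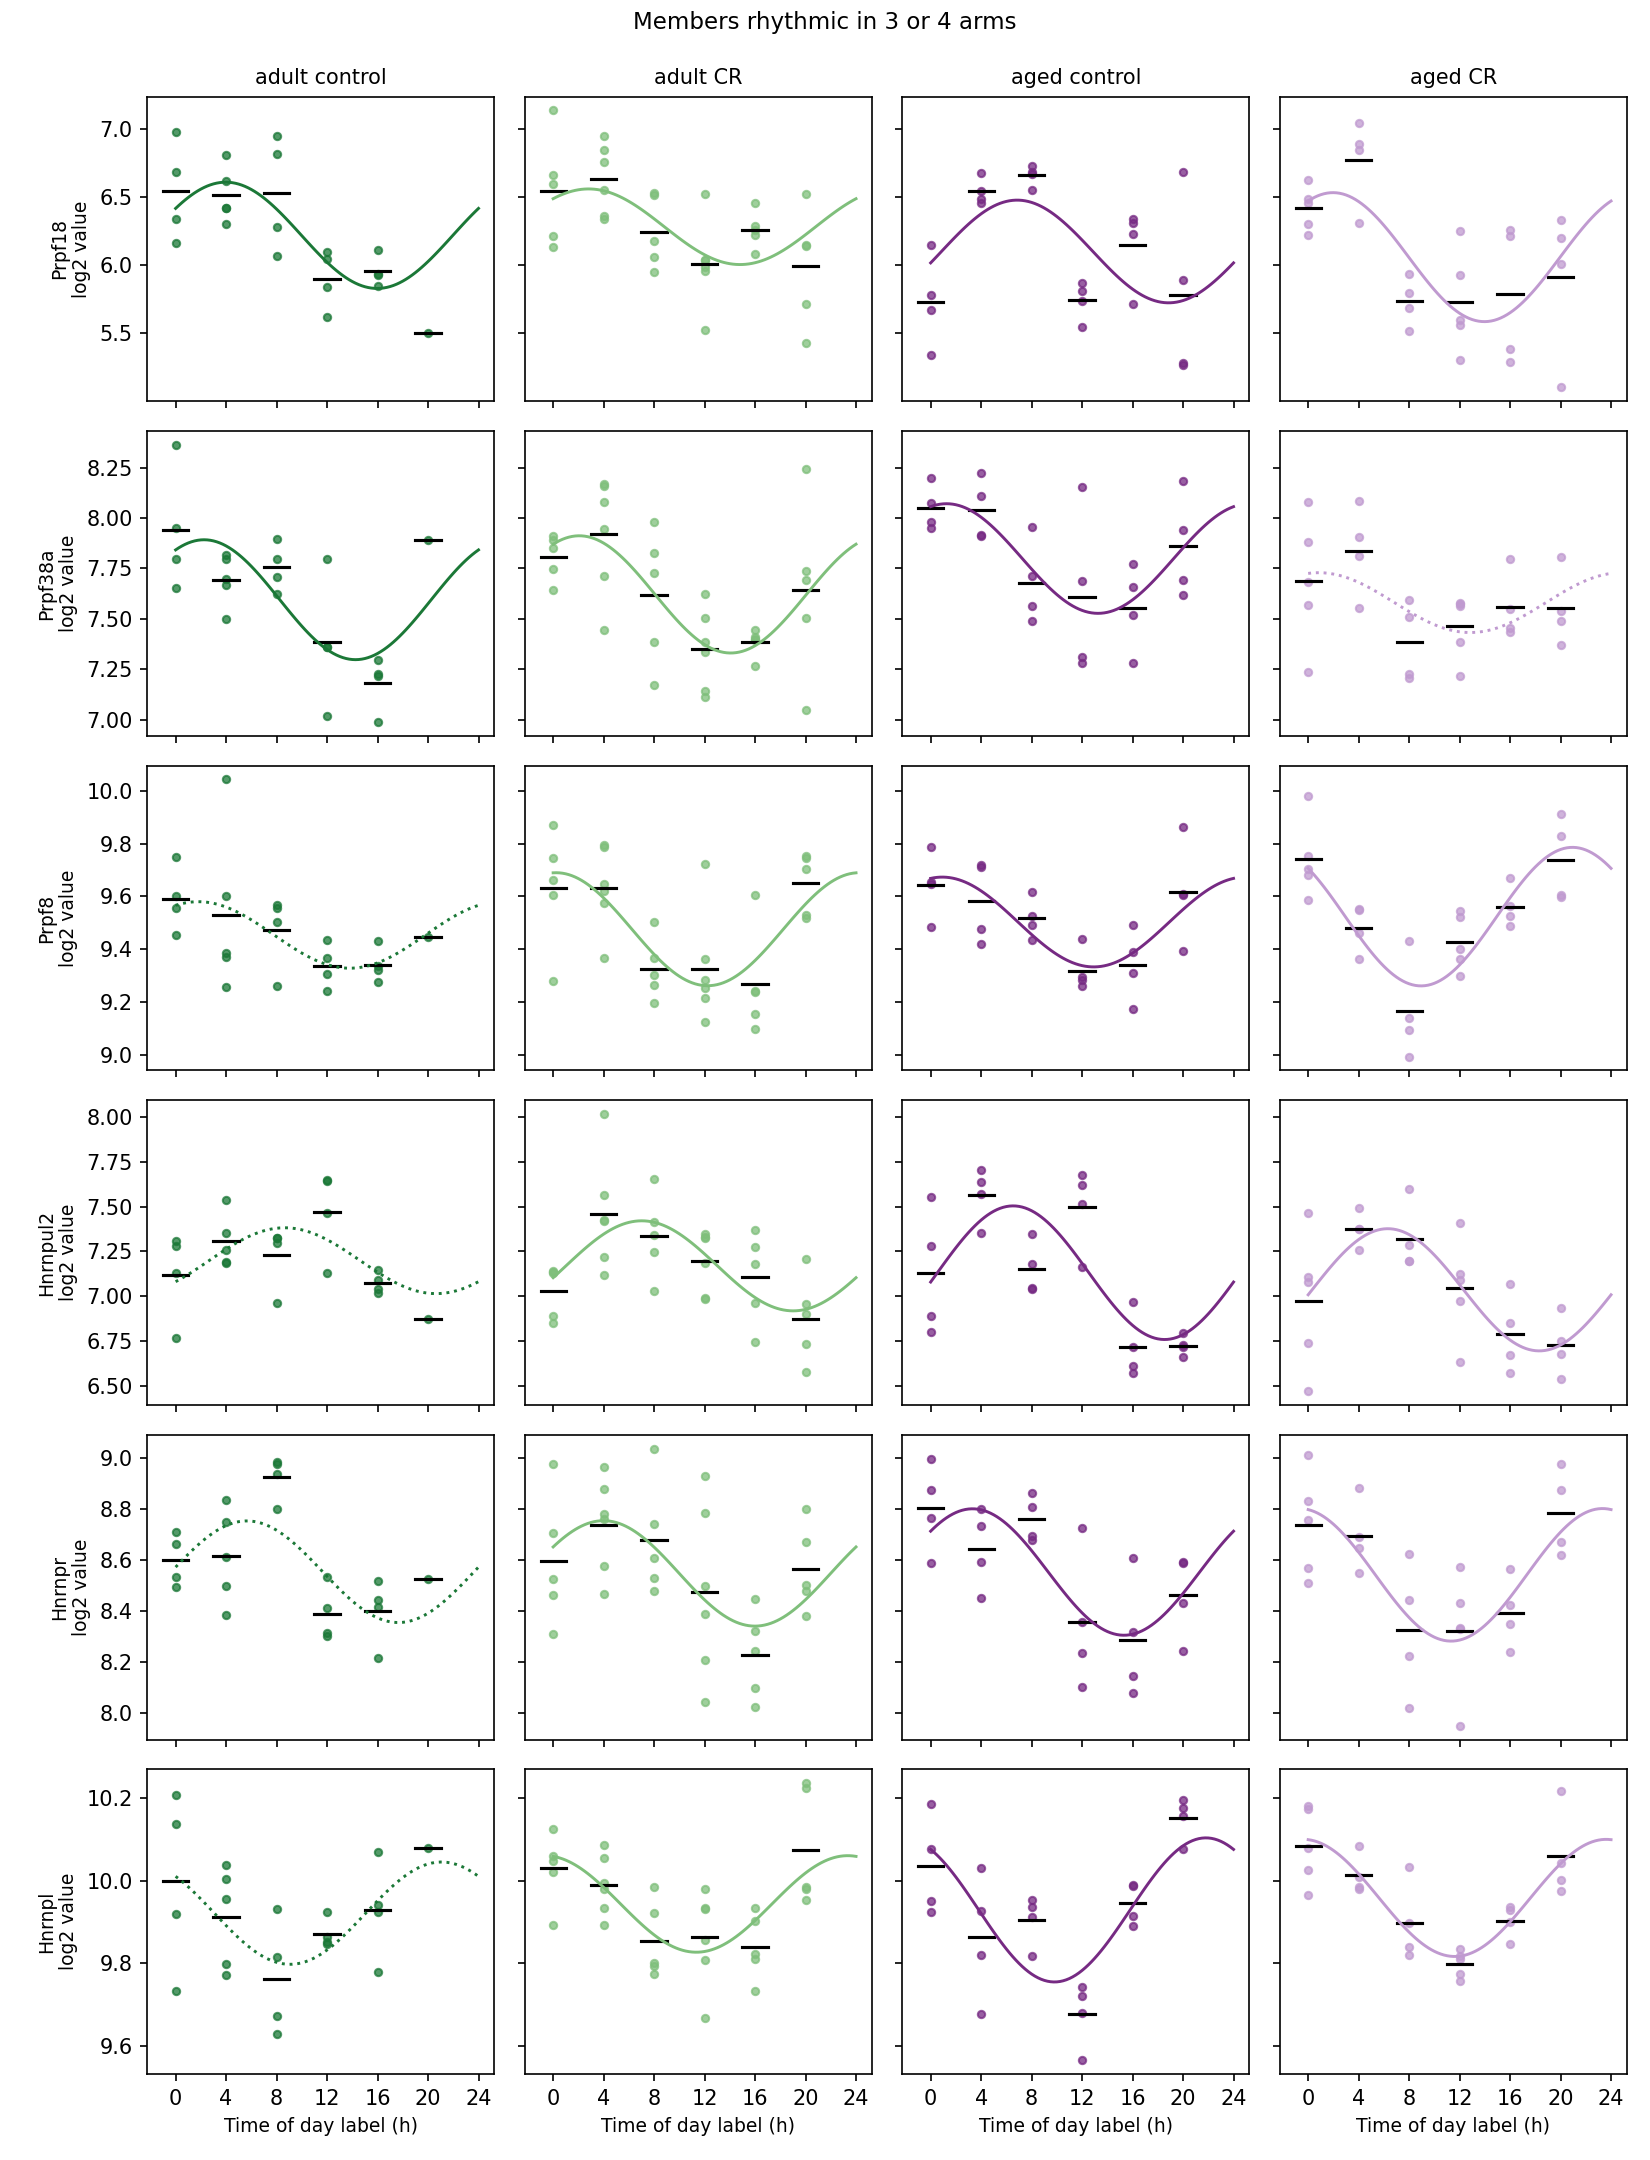
Log2 values of the 6 genes rhythmic in at least 3 arms, by time of day label (h), with 1 column per arm. Points are single arrays, black bars time means, and the curve is the fitted 24 h cosine, solid where called and dotted where not. Prpf18 is solid in all 4 arms, and its curve peaks at 6.86 h in aged control and at 1.97 h in aged CR.

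Of the 5 members rhythmic in both aged arms, 4 peaked earlier in aged CR than in aged control, as did 63.4% of the 484 genes rhythmic in both, whose median shift was -0.68 h. The shifts were 4.89 ± 1.36 h for Prpf18, 3.99 ± 1.28 h for Hnrnpr, 3.97 ± 1.25 h for Prpf8 and 0.223 ± 1.02 h for Hnrnpul2, whereas Hnrnpl peaked later by 1.8 ± 1.18 h. The test of the rhythm difference itself gave adjusted p = 0.138, 0.239 and 0.154 for the first 3 in limma, so none was called. No splicing factor passed that test in any comparison. Counts were 0 for diet in aged mice (0.388% of all genes), 0 for diet in adult mice (0.0253%), 0 for age under CR (0.00844%) and 0 for age on control diet (0%). At an unadjusted p under 0.05 the members' counts were 7, 2, 6 and 0. These were 11.9, 3.39, 10.2 and 0% of members, against 13.8, 6.45, 9.86 and 4.04% of all genes. Under CR, Hnrnpr peaked 4.67 ± 1.31 h and Prpf8 3.3 ± 0.99 h earlier in aged than in adult mice, with adjusted p = 0.277 and 0.318. Both contrasts of aged CR share its arrays.

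The other rhythmic members were called in 1 or 2 arms. Among SR proteins, Srsf9 alone was called, in adult control (amplitude 0.30 ± 0.09, peak at 6.02 h, adjusted p = 0.036 in limma) and in adult CR (0.28 ± 0.07, 5.74 h, adjusted p = 0.00561). The adult control call was lost in 6 of 22 single omissions, the lone T20 array among them (adjusted p up to 0.109). Among the SF3 subunits, Sf3a1 had the largest amplitude in adult control. Its arrays read 6.05, 6.11, 6.16 and 6.55 at T8 and 5.07, 5.16, 5.45 and 5.77 at T0 in that arm. The groups did not overlap, and the amplitude was 0.46 ± 0.10 with a peak at 8.9 ± 0.67 h (limma, adjusted p = 0.00221). In adult CR, Sf3a1 peaked at 12.4 ± 1.27 h with an amplitude of 0.22 ± 0.07, a call lost in 22 of 32 omissions (adjusted p up to 0.177). Sf3b1, which contacts the branch point, had a shallow curve in adult CR (amplitude 0.11 ± 0.03, peak at 18.4 h) and aged control (0.14 ± 0.04, 20.6 h). Sf3b3, Sf3b5 and Sf3b6 were called in adult CR with peaks at 21.9, 3.32 and 18.8 h. The Sf3b3 call was lost in 20 of 32 omissions (up to 0.133), that of Sf3b6 in 5 (up to 0.0961) and that of Sf3b1 in 3, adult CR T16 replicate 3, T20 replicate 1 and T20 replicate 2 (up to 0.082). In aged control the Sf3b1 call was lost without T20 replicate 2 (adjusted p = 0.0504).

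The largest amplitude of any member belonged to Snrpa1, a protein of the U2 snRNP, in aged CR. Its 5 arrays at T12 read 7.05, 7.09, 7.39, 7.58 and 8.11, and the 5 at T0 read 5.90, 6.18, 6.21, 6.35 and 6.67, all lower. The amplitude was 0.55 ± 0.10 with a peak at 10.5 ± 0.70 h, a 2.16-fold range (limma, adjusted p = 9.33e-05). In the other arms its curve did not pass, with amplitudes of 0.38 in adult control (adjusted p = 0.0683) and 0.34 in aged control (adjusted p = 0.052), and the difference in rhythm between aged CR and adult CR was not called (adjusted p = 0.363). Its 2 other probe sets peaked at 12.4 and 11.1 h in aged CR with amplitudes of 0.24 and 0.20 and were not called.

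The other Snrp genes called, all but Snrpa encoding Sm proteins, were rhythmic in 1 or 2 arms. Snrpf in adult CR read 6.63, 6.82, 6.90, 6.94 and 7.25 at T0 and 5.76, 5.83, 5.84, 6.09 and 6.12 at T16, without overlap, and had an amplitude of 0.40 ± 0.09 (peak at 2.77 h, adjusted p = 0.00204 in limma). Snrpb peaked at 9.27 h in adult CR and at 9.31 h in aged CR, Snrpe at 8.21 h in aged CR and Snrpd2 at 5.37 h in aged control. The Snrpd2 call was lost in 14 of 24 omissions (adjusted p up to 0.112), the Snrpb call in aged CR in 13 of 26 (up to 0.11) and in adult CR in 8 of 32 (up to 0.125), and the Snrpe call without aged CR T8 replicate 3, T20 replicate 1 or T20 replicate 4 (up to 0.0747). Snrpa, a protein of the U1 snRNP, peaked at 22.0 h in adult CR. Among hnRNP genes, Hnrnpa0 and Hnrnpul1 were called in adult CR, calls lost in 10 and 13 of 32 omissions (up to 0.0876 and 0.0867), and Hnrnpd in aged CR. Hnrnpa1, which often represses exons, read 9.77, 9.85, 9.91 and 9.93 at T4 and 9.21, 9.48, 9.54 and 9.63 at T16 in aged CR. Its amplitude there was 0.20 ± 0.04 with a peak at 6.45 h (limma, adjusted p = 0.00154), and both of its other probe sets were called in that arm.

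Most fitted peaks lay between T20 and T12, which is the larger part of the day. Of the called members, 4 of 4 in adult control, 14 of 17 in adult CR, 8 of 8 in aged control and 10 of 10 in aged CR peaked between T20 and T12, where 65.8, 69.4, 78.4 and 72.3% of all called genes also peaked. In the narrower window from T20 to T8 the counts were 3 of 4, 12 of 17, 8 of 8 and 7 of 10. Shares of all called genes there were 47.7, 54.6, 61.1 and 53.4%. The adult CR members outside T20 to T12 were Sf3b1, Sf3b6 and Sf3a1. Second probe sets of Sf3b1 and Sf3b6 peaked at 4.95 and 1.32 h there and were not called, and that of Sf3b1 in aged control peaked at 8.83 h, also not called. Of all 42 called values of members, rhythms and levels together, 21 had another probe set above the filter, and in 6 of these another one was called. The median amplitude of called members was 0.34, 0.23, 0.25 and 0.26 in the 4 arms, against 0.34, 0.27, 0.31 and 0.30 for all called genes. Schwann cell markers were rhythmic as well (4, 5, 3 and 4 of 6 in the same order), with their mean lowest at T0 or T20 and highest at T12 in each arm. Their part in the members' rhythms was not tested.

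Some well-known splicing factors had no called rhythm in any arm. These included Srsf1, the SR protein first described as a splicing factor (amplitudes from 0.14 to 0.24), U2af1 and U2af2, the subunits of U2AF, Prpf19, a ubiquitin ligase of the activated spliceosome, Hnrnpdl and Snrpn. Of these, Snrpn in adult control came nearest, at 0.24 ± 0.08 (limma, adjusted p = 0.0565). Srsf3 and Hnrnpa2b1, also without a called rhythm, came nearer in aged control (limma, adjusted p = 0.0535 for each). U2af2 had amplitudes of at most 0.09 ± 0.04 and Prpf19 of at most 0.11 ± 0.06.

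**Figure D2:**
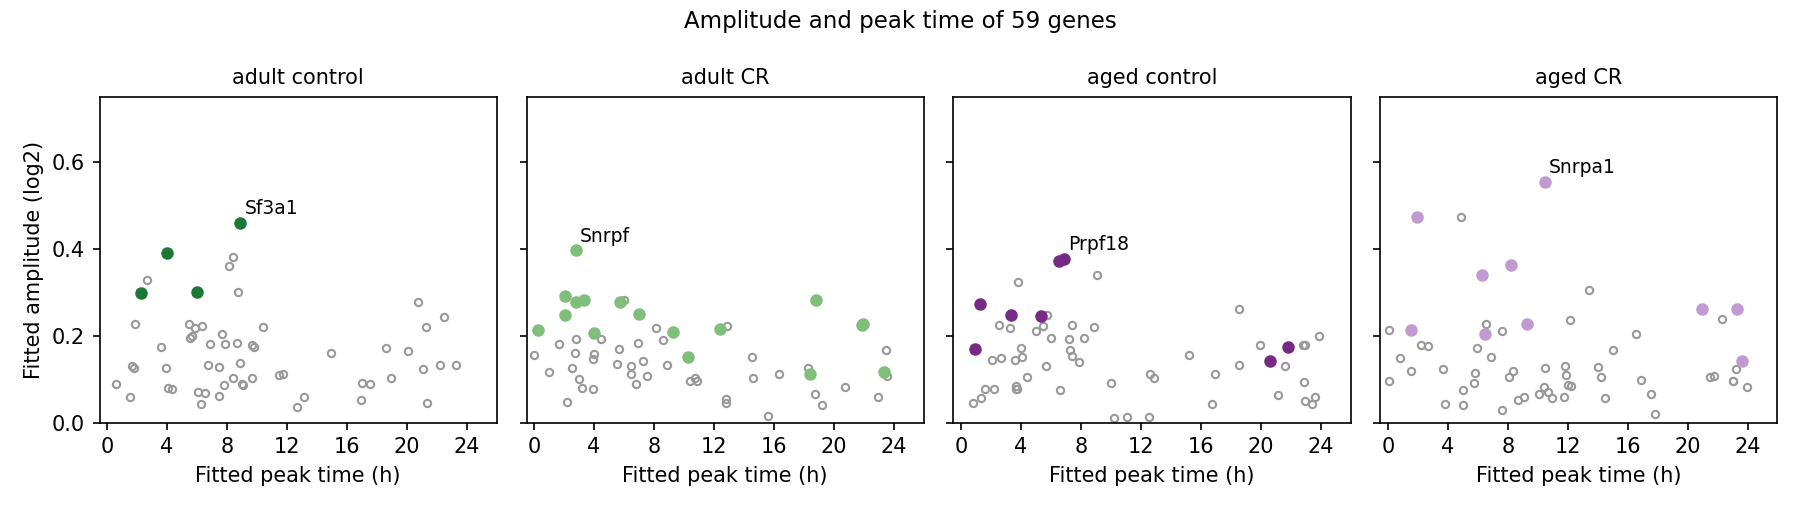
Fitted amplitude (log2) against fitted peak time (h) of the 59 genes in each arm. Filled points are called rhythmic and open points are not, and the called gene of largest amplitude in each arm is named. Only 3 filled points, all in adult CR, lie between 12 and 20 h, and Snrpa1 in aged CR stands highest at 0.55.

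A 24 h cosine can miss patterns of another shape. When time was entered as 6 separate levels, 11 members (18.6%) differed between times in adult control and 24 (40.7%) in adult CR. Counts were 17 (28.8%) in aged control and 13 (22.0%) in aged CR, against 14.1, 23.7, 12.8 and 21% of all genes. Of these, 8, 11, 12 and 4 had not been called by the cosine. In adult control 7 of the 11 had their highest or lowest mean at T20, which is 1 array. Without the T20 arrays, the counts were 10 (16.9%), 14 (23.7%), 13 (22.0%) and 12 (20.3%), against 15.1, 19.2, 10.9 and 16.5% of all genes. Hnrnpr and Prpf18 were called in all 4 arms with and without the T20 arrays. Snrpd2 was called in all 4 arms with 6 levels and in 0 without T20, where its adjusted p ran from 0.0511 to 0.386 in limma.

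Srsf2 (SC35), an SR protein that enhances exon inclusion, differed between neighbouring times. In adult control its arrays read 10.85, 10.87, 11.11, 11.32 and 11.46 at T4 and 10.22, 10.27, 10.40 and 10.55 at T8. In aged control they read 10.71, 10.92, 10.98 and 11.07 at T4 and 10.22, 10.30, 10.39 and 10.42 at T8. Both control arms thus separated fully within 4 h. Time differences passed in adult control (limma with 6 levels, adjusted p = 0.000238), in adult CR (adjusted p = 0.000566) and in aged control (adjusted p = 0.00185). In aged CR, Srsf2 was not called, and its T4 arrays (10.86 to 11.06) overlapped those of T8 (10.48 to 11.07). The RNA quality measure Gapdh 3′ minus 5′ signal had its highest time mean at T4 and its lowest at T8 in all 4 arms, from 0.09 to -0.12 in adult control, 0.07 to -0.11 in adult CR, 0.14 to -0.12 in aged control and 0.04 to -0.16 in aged CR. Its part in the Srsf2 values was not tested.

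Srsf3, which regulates its own exon use, and Hnrnpk, a poly(C) binding protein, also differed between times. Srsf3 in aged CR read 9.32, 9.34, 9.38 and 9.39 at T4 and 8.47, 8.73, 8.85 and 8.90 at T16, without overlap. It passed the 6-level test in aged CR (limma, adjusted p = 0.00833), aged control (0.0142) and adult CR (0.0216), and it was lowest at T16 in each. Hnrnpk in aged control read 9.10, 9.54, 9.61 and 9.97 at T0 and 8.69, 8.78, 8.95 and 8.97 at T20 (limma with 6 levels, adjusted p = 0.00232). It passed in adult CR too (adjusted p = 0.0274), but not there without the T20 arrays (adjusted p = 0.146). Hnrnpa2b1, which binds RNA with Hnrnpa1, passed in adult CR (limma with 6 levels, adjusted p = 0.0075) and aged control (0.00097). Above the filter were 5 probe sets of Srsf2, 4 of Srsf3, 4 of Hnrnpa2b1 and 2 of Hnrnpk. Results with time as levels rest on 1 probe set per gene, and the others were not tested that way.

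**Figure D3:**
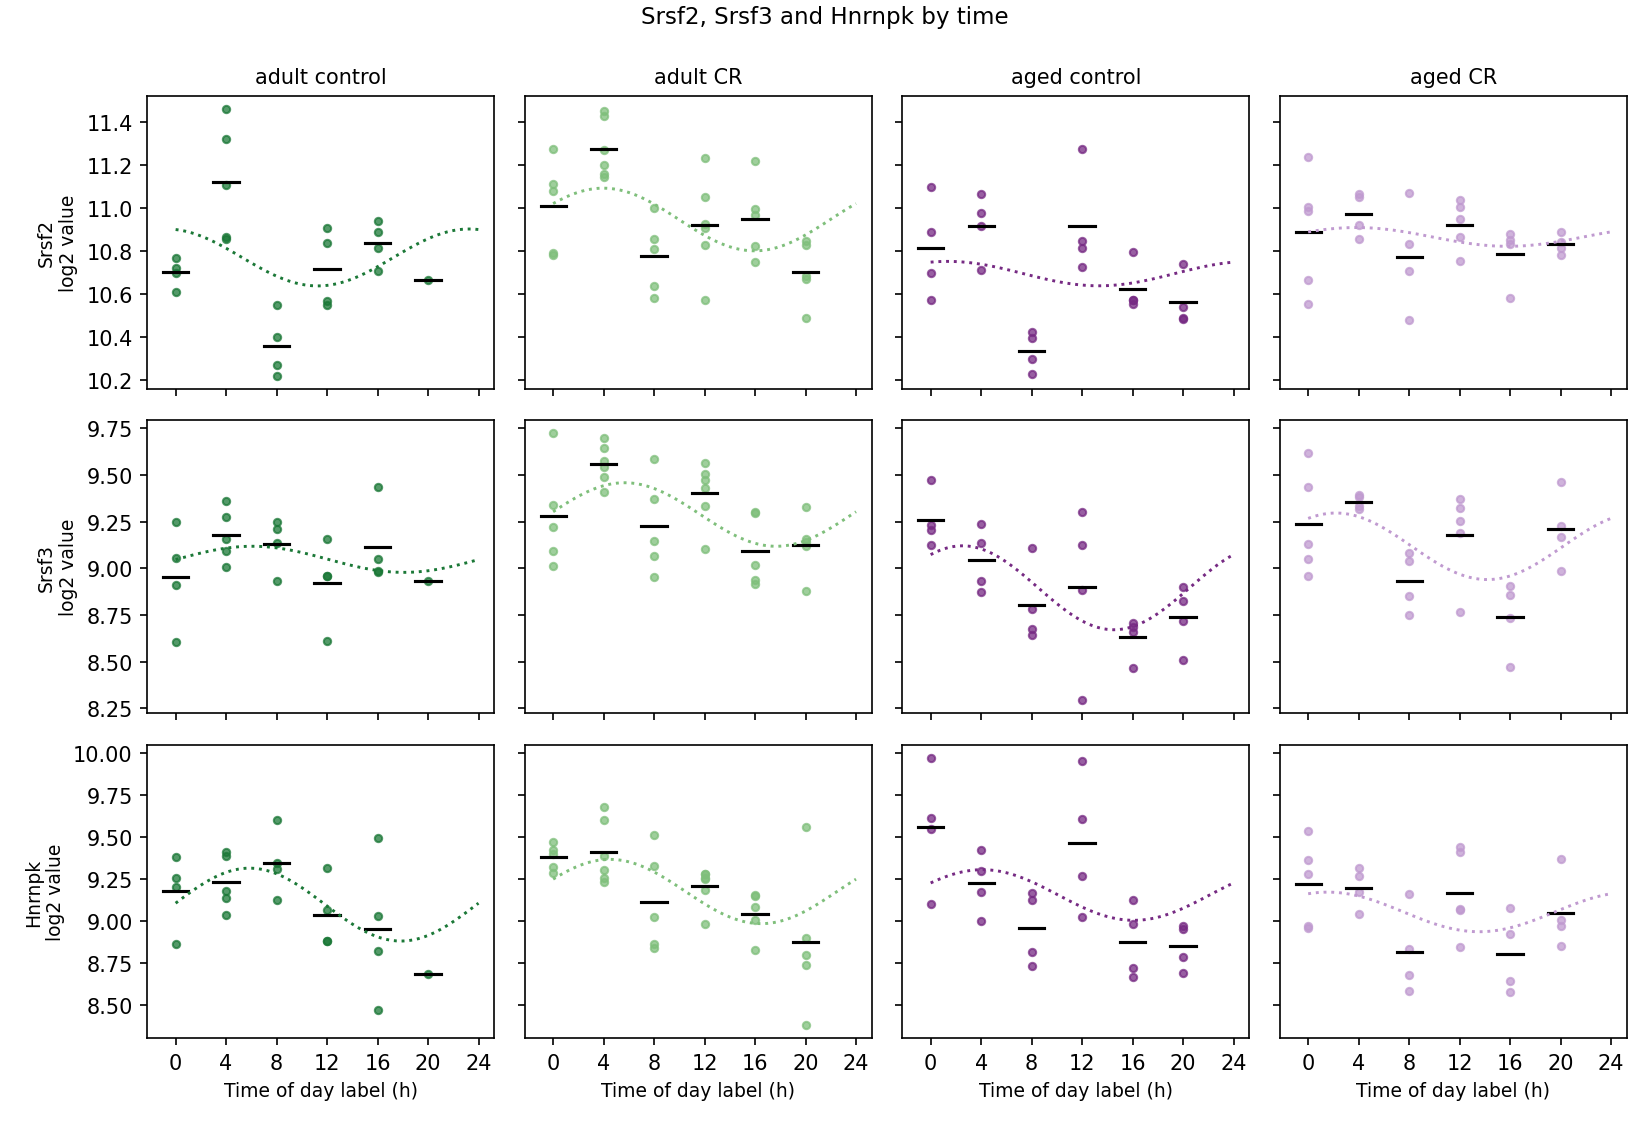
Log2 values of Srsf2, Srsf3 and Hnrnpk by time of day label (h), with 1 column per arm. Points are arrays, black bars time means and dotted curves the fitted cosines, which were not called. Srsf2 in both control arms drops from T4 to T8 with no overlap between the arrays of those times.

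Time means moved together in part. Relative to each gene's own mean over times, the median splicing factor at T16 stood at -0.06 in the first 3 arms and at -0.07 in aged CR, while the median of all genes stood between 0.00 and -0.01. At T16, 16, 18, 18 and 17 of 59 members were above their own mean, against 48.8, 47.8, 47.6 and 49.0% of all genes. The median splicing factor at T20 stood at -0.05 in adult control (1 array) and -0.06 in adult CR. It stood at -0.09 in aged control, lower than at T16, and at -0.03 in aged CR. Aged control at T0 was the opposite, with 50 of 59 members above their mean, against 58.6% of all genes. There 28 (47.5%) were at their highest time, against 25.8% of all genes. The mean over the 59 genes in aged control was 8.19 ± 0.16 (SD, n = 4) at T0 and 7.97 ± 0.04 (n = 4) at T16. It was lowest at T20 there, at 7.95 ± 0.12 (n = 4). In adult CR it was 8.19 ± 0.07 (n = 6) at T4 and 8.04 ± 0.03 (n = 5) at T16. In aged CR it was 8.11 ± 0.06 (n = 5) at T12 and 8.01 ± 0.09 (n = 4) at T16, a difference close to the spread of its arrays. The muscle stem cell marker mean was also highest at T0 in aged control (9.56 ± 0.12, against 9.22 ± 0.05 at T16), and the Schwann cell marker mean there was 8.83 ± 0.15 at T0 and 9.27 ± 0.40 at T16. The RNA quality measure Actb 3′ minus 5′ signal was also highest at T0 (-0.41 ± 0.04) and lowest at T16 (-0.64 ± 0.08) in aged control. Its lowest time was T16 in adult control as well, but T12 in adult CR and T8 in aged CR. Their part in these values was not tested.

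**Figure D4:**
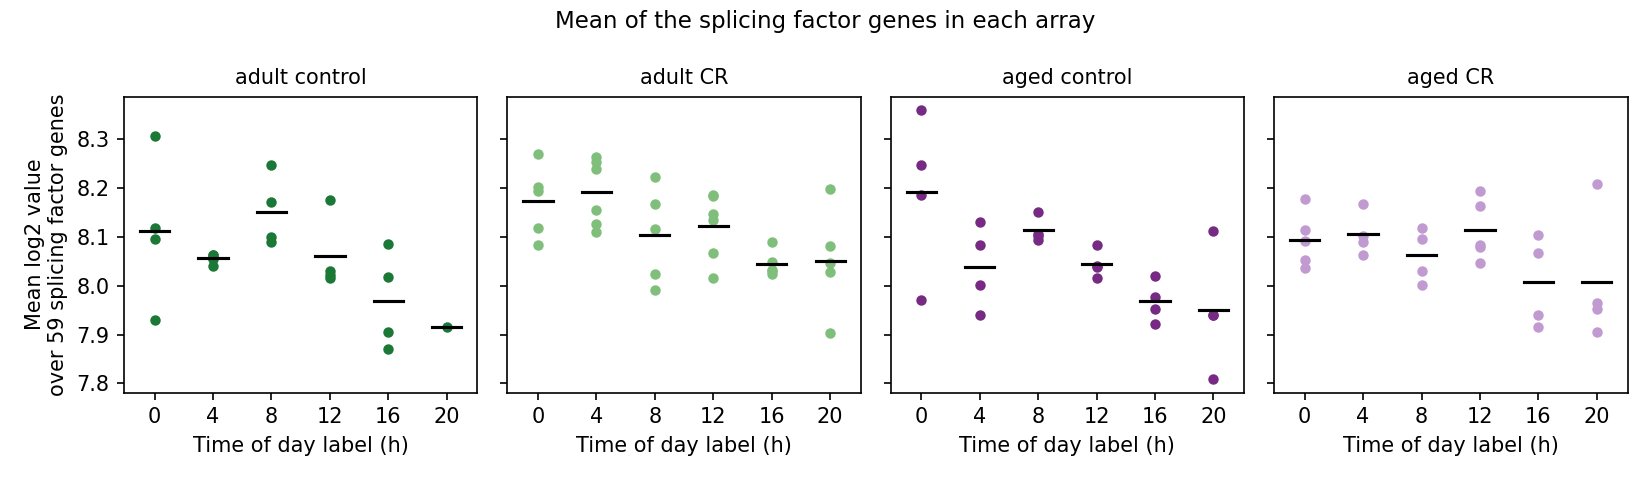
Mean log2 value over the 59 splicing factor genes in each array, by time of day label (h), for the 4 arms. Points are arrays and black bars time means. T16 lies low in every arm, and T20 has the lowest time mean in both control arms (1 array in adult control). Aged control T0 has both the highest mean of its arm (8.19) and a wide spread of its 4 arrays.

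Day mean levels were compared between arms with limma's moderated test. With age on control diet, 0 of 59 splicing factors passed (0.422% of all genes), with a median difference of -0.001 against 0.009 for all genes. There 2 had an unadjusted p under 0.05 (3.39%, against 10.3% of all genes). With diet in adult mice, 0 passed (1.05% of all genes), although 46 of 59 differences were positive, against 53.1% of all genes. Of the 59, 12 had an unadjusted p under 0.05 (20.3%, against 13.1% of all genes). The median difference there was 0.06, against 0.01 for all genes. With age under CR, 1 passed (1.94% of all genes), and 18 of 59 differences were positive (49.7% of all genes). With diet in aged mice, 2 passed (2.29% of all genes). The age by diet interaction passed for 0 members (0% of all genes), with a smallest adjusted p = 0.489. At an unadjusted p under 0.05 there were 5 (8.47%, against 7.66% of all genes). Contrasts that use the same arm share its arrays. The 95% interval of a member reached 0.06 to 0.33 to either side of its difference in these 4 contrasts.

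Hnrnpa1 was the member that passed with age under CR. Its 32 adult CR arrays ran from 9.60 over a median of 9.83 to 10.24, and its 26 aged CR arrays from 9.21 over 9.75 to 10.00, so the arms overlapped. The day mean fell by 0.15 on the log2 scale (SE 0.04), 1.11-fold lower in aged mice (limma, adjusted p = 0.0187). Its 2 other probe sets gave -0.18 and -0.11 and were not called, and the call was lost without the T20 arrays. On control diet the arrays ran from 9.48 over 9.77 to 9.87 in adult and from 9.34 over 9.65 to 9.99 in aged mice, a difference that did not pass.

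Prpf4b, a kinase that phosphorylates tri-snRNP proteins, fell with CR in aged mice. Arrays ran from 8.39 over a median of 8.89 to 9.53 in aged control and from 7.87 over 8.59 to 9.24 in aged CR. The day mean fell by 0.32 on the log2 scale (SE 0.08), 1.24-fold lower under CR (limma, adjusted p = 0.0148). Its 4 other probe sets lay between -0.12 and 0.11 and were not called. Sf3a3, a subunit of the U2-bound SF3a complex, rose with CR in aged mice. Its arrays ran from 5.79 over 6.15 to 6.68 in aged control and from 6.01 over 6.48 to 7.17 in aged CR. The day mean was 0.29 ± 0.08 higher, 1.22-fold (limma, adjusted p = 0.0252), and its other probe set gave -0.06 and was not called. Both calls were lost without the T20 arrays and with the mean of a gene's probe sets.

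Srsf3 came near the threshold in both diet contrasts. Arrays ran from 8.60 over 9.05 to 9.43 in adult control, 8.88 over 9.31 to 9.72 in adult CR, 8.29 over 8.88 to 9.47 in aged control and 8.47 over 9.15 to 9.62 in aged CR. The CR minus control difference was 0.24 ± 0.07 in adult mice (limma, adjusted p = 0.0502) and 0.22 ± 0.07 in aged mice (adjusted p = 0.0538). Snrpg, an Sm protein, differed by 0.25 ± 0.07 with CR in adult mice (adjusted p = 0.052). In aged mice under CR, Prpf31 and Prpf3 of the tri-snRNP differed by 0.21 ± 0.07 and 0.23 ± 0.09 (adjusted p = 0.0674 and 0.146), and Prpf38a and Snrpn by -0.22 ± 0.07 and -0.20 ± 0.07 (adjusted p = 0.0674 and 0.0798). None of these passed. U2af1 differed by 0.19 ± 0.07 with CR in adult mice and by -0.18 ± 0.06 with age under CR, and neither difference passed (adjusted p = 0.164 and 0.124). Markers of other cells moved with the same contrasts. With CR, 3 of 6 fibroadipogenic progenitor markers were lower in adult mice (Dpt, Gsn and Col3a1) and 1 in aged mice (Col3a1), and 2 of 3 macrophage and lymphocyte markers were higher in aged mice (Cd68 and Cd79a). With age under CR, 2 of 6 Schwann cell markers (Sox10 and Mbp) were higher. So were 2 of 5 markers of pericytes and smooth muscle, Acta2 by 0.31 ± 0.09 and Myh11 by 0.48 ± 0.12. Of that list, Kcnj8 fell by 0.77 with CR in aged mice (SE 0.15), more than any member. Their part in the differences was not tested.

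**Figure D5:**
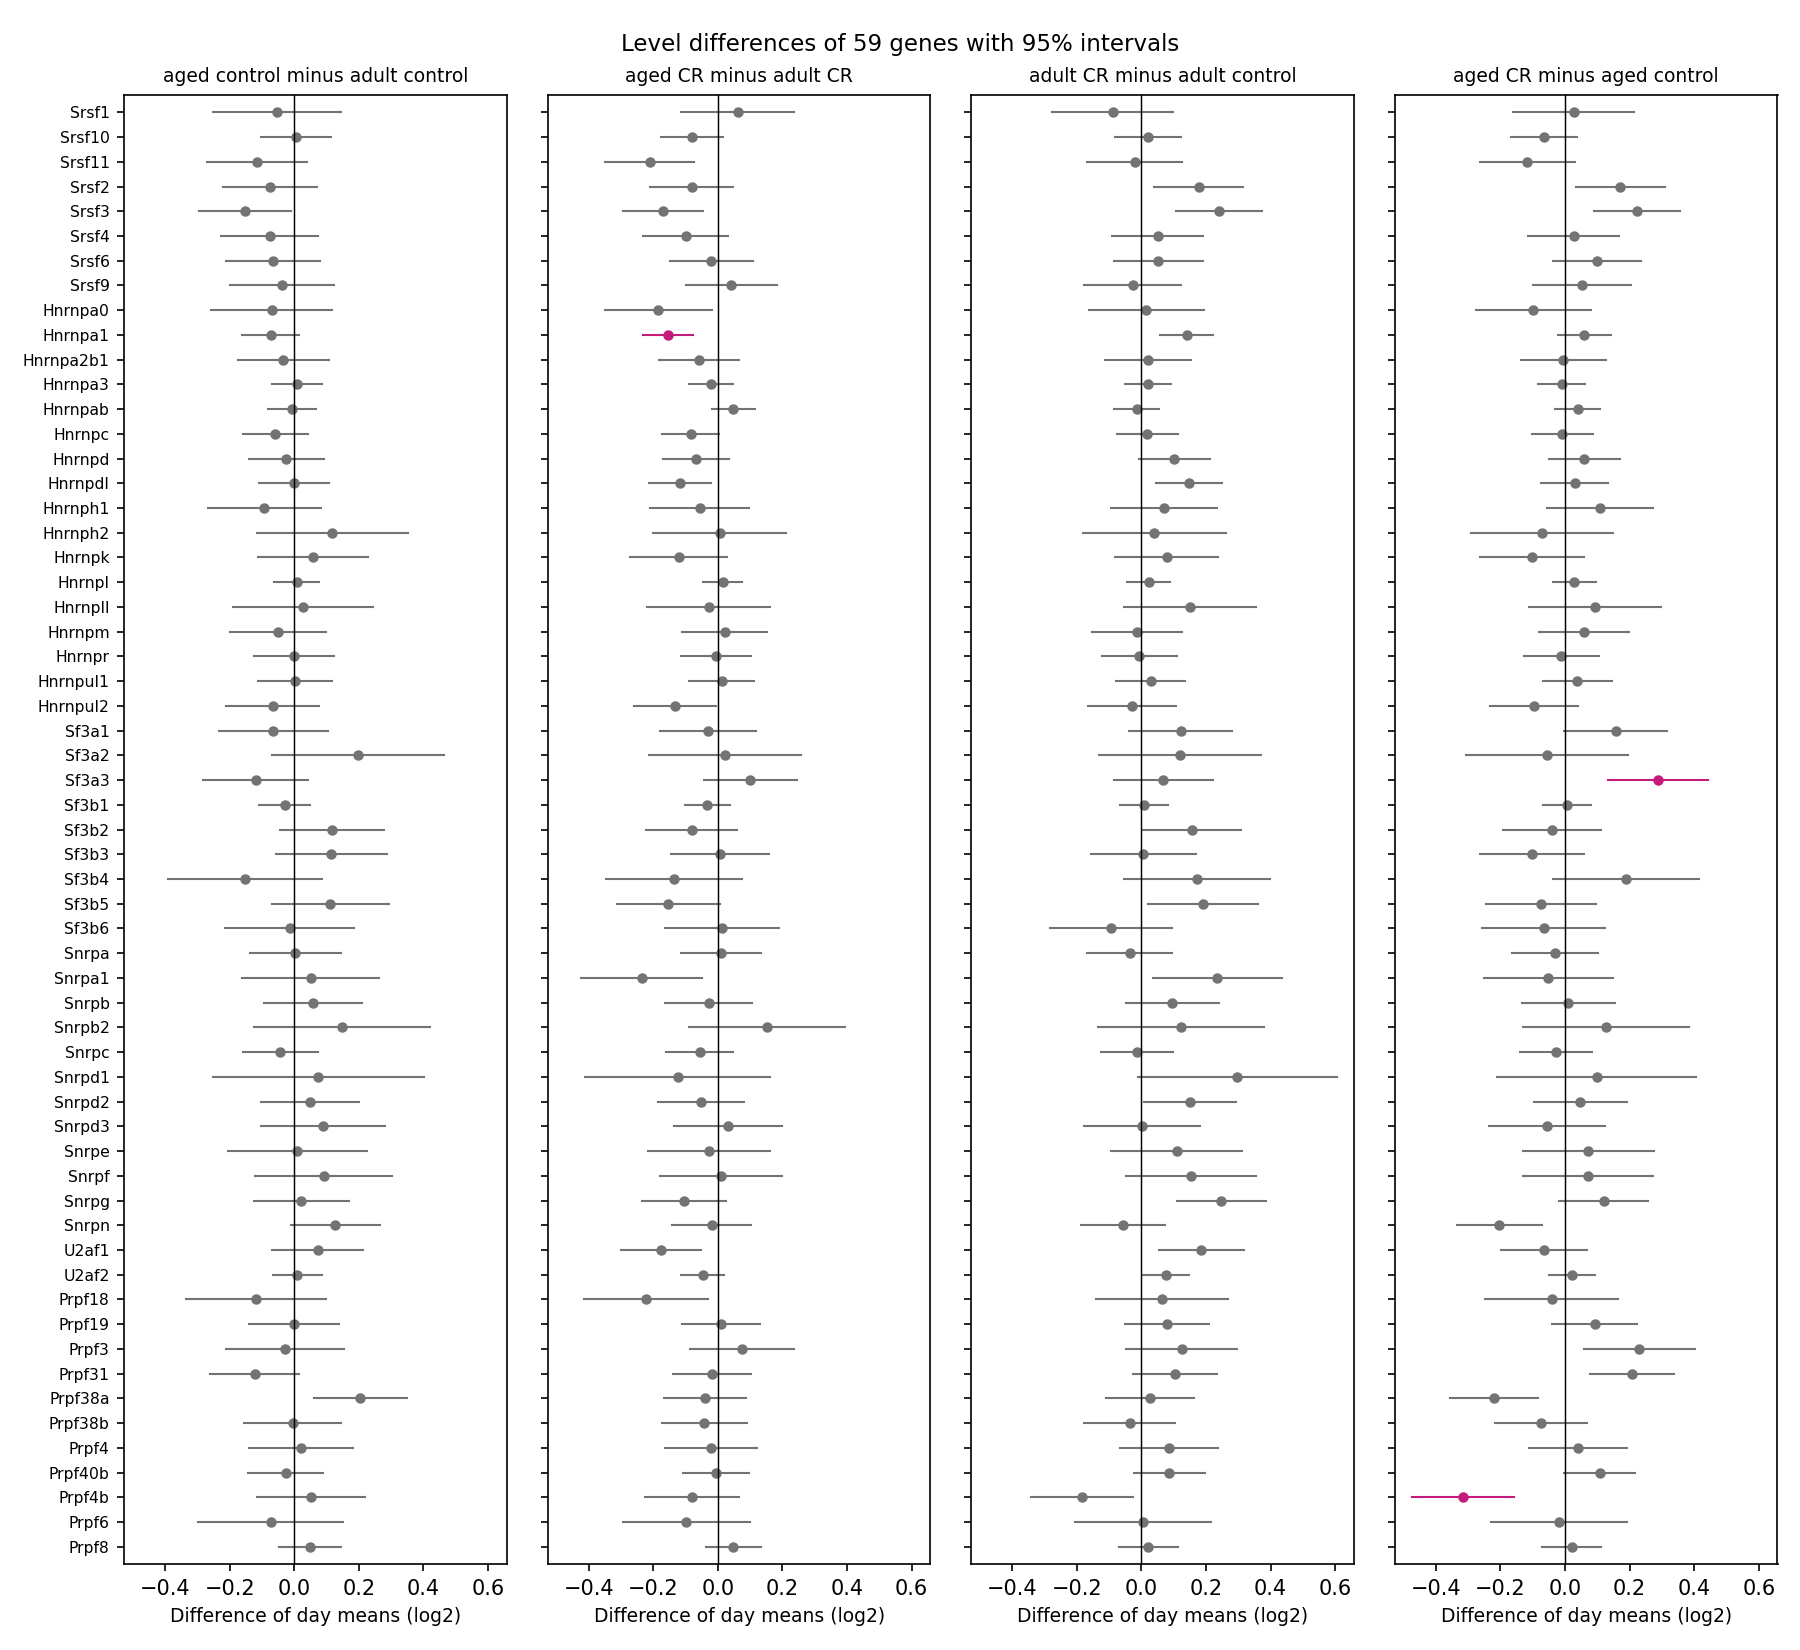
Differences of day means (log2) of the 59 genes, grouped by family, in 4 comparisons, with 95% intervals of the fit. Coloured points passed at an adjusted p under 5%. The 3 coloured points are Hnrnpa1 with age under CR (-0.15), and Sf3a3 (0.29) and Prpf4b (-0.32) with CR in aged mice.

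Family medians are given as differences in level. Medians over the 8 Srsf genes were -0.07 with age on control diet, -0.08 with age under CR, 0.04 with CR in adult mice and 0.04 with CR in aged mice, with 0 called. Medians over the 17 Hnrnp genes were -0.01, -0.06, 0.02 and 0.03 in the same order. The 12 Snrp genes had medians of 0.05, -0.03, 0.12 and 0.03. Of the 12, 11, 4, 9 and 7 were positive, against 54.3, 49.7, 53.1 and 49.2% of all genes. Medians over the 11 Prpf genes were -0.00, -0.02, 0.06 and 0.02, and over the 6 Sf3b genes 0.05, -0.06, 0.08 and -0.05. Medians of the small families were -0.06, 0.02, 0.12 and 0.16 for the 3 Sf3a genes. They were 0.04, -0.11, 0.13 and -0.02 for the 2 U2af genes. Members varied within an arm about as other genes did, with a median residual SD of 0.25 against 0.27 for all genes.

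Other lists were set beside the same shares of all genes, which for rhythms were 10.6% and 22.4% in the adult arms (control first, then CR) and 10.8% and 16.5% in the aged arms. Of 42 other core spliceosome proteins tested, rhythms were called for 3 (7.14%) and 6 (14.3%) in the adult arms and for 2 (4.76%) and 3 (7.14%) in the aged arms, each share below that of all genes. Sart1, which recruits the tri-snRNP, was rhythmic in each arm, with peaks at 12.5, 13.7, 15.4 and 15.3 h and amplitudes of 0.27 ± 0.06, 0.25 ± 0.05, 0.22 ± 0.06 and 0.22 ± 0.06 (limma, largest adjusted p = 0.0197). Of 8 snRNP assembly genes, 1, 4, 0 and 2 were rhythmic in the same order (12.5, 50, 0 and 25%), among them Smn1, the core of the assembly complex, at 4.78 h in adult CR and 3.04 h in aged CR. Of 7 kinases of SR proteins, 1, 1, 0 and 0 were rhythmic (14.3, 14.3, 0 and 0%), which were Clk4 in adult control and Dyrk1a in adult CR. Of 32 other splicing regulators, 2, 10, 6 and 6 were rhythmic (6.25, 31.2, 18.8 and 18.8%), and 2 (6.25%, against 2.29% of all genes in either direction) were higher with CR in aged mice, Rbm39 by 0.27 ± 0.07 and Tra2a by 0.23 ± 0.06 (limma, adjusted p = 0.0166 and 0.0315). Sart1 was also higher with CR in aged mice, by 0.20 ± 0.06 (adjusted p = 0.0393). Outside the splicing pathway, of 11 temperature-responsive genes 0, 1, 0 and 3 were rhythmic (0, 9.09, 0 and 27.3%), Hspb1, Bag3 and Hsph1 (27.3%) were lower with CR in aged mice, and Bag3 was lower with age under CR.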

How the data were processed

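The authors deposited values made with RMA, as the submitters' processing notes name it. Their log2 scale is inferred from the range of the deposited values. RMA compresses differences near the floor, and the number of arrays limits precision. Of 45141 probe sets, 28898 had 1 symbol in the platform annotation. Dim probe sets (mean under percentile 40) were dropped, and each gene kept its brightest remaining one.

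Arrays were grouped by title, and 1 model over all arms (limma 3.58.1 in R 4.3.3) held a day mean, cosine and sine per arm. Adjustment was by Benjamini-Hochberg over 11853 genes, and the code was tested on simulated data. Named genes were a set of 21 symbols named whatever their values (Srsf2, Srsf3 and Hnrnpk among them), members called in most arms, up to 10 called members of smallest p per comparison, 5 of largest amplitude per arm and up to 4 per other list. Snrpg, Prpf3, Prpf31 and the genes with an E-box were named after their values were seen. Members and lists were chosen with earlier results of these data known. Alternatives were no filter, the mean of probe sets, separate fits, time as 6 levels, no T20 arrays, quantile normalization, a residual component, a replicate block and omission of each array. Time as 5 levels without T20 was added after seeing the data.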

Additional observations from a re-analysis of the deposited data

Results flagged for a closer look

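Dixon's test covered only 9 of the genes with values by time above, in 207 groups of 4 to 6 arrays. It marked 8 arrays as far from the others of their group, where chance gives about 10.35 in 207 (1 in 20).

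Adult control T8 replicate 2 read 6.97 for Hnrnpul2, below the other 3 arrays (7.30 to 7.33). Adult control T16 replicate 4 read 9.43 for Srsf3, above the others (8.98 to 9.05). In adult CR at T16, replicate 1 read 7.27 for Prpf38a, below the others (7.40 to 7.44), and replicate 4 read 9.61 for Prpf8, above the others (9.10 to 9.24). In aged control at T16, replicate 4 read 10.8 for Srsf2, above the others (10.55 to 10.57). In aged CR, replicate 1 at T16 read 10.58 for Srsf2, below the others (10.83 to 10.88). For Snrpa1 in aged CR, replicate 1 at T4 read 6.61, below the others (7.26 to 7.38), and replicate 4 at T16 read 7.28, above the other 3.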

How the results depend on the processing

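Of 42 called member values, 27 stayed called under every omission of a single array, 19 under each of the other 8 alternatives run and 18 under both. No called level difference turned direction under those 8 alternatives, and direction was not scored for rhythms. Rhythmic members in adult control numbered 9 with the mean of probe sets and 8 with a residual component. With time as 6 levels they numbered 11 (18.6%, against 14.1% of all genes). In adult CR the count was 11 to 17 over single omissions, where 2407 to 2616 of all genes were called. In aged control it was 17 with 6 levels (28.8%, against 12.8% of all genes) and 3 without the T20 arrays. With 5 levels and no T20, adult CR had 14 members (23.7%, against 19.2% of all genes) in place of 24 (40.7%, against 23.7%). For age under CR in level, the count was 2 with no filter, with the mean of probe sets, with quantile normalization and with the residual component. It was 0 without T20, and 1 to 2 over omissions (174 to 255 of all genes). For diet in adult mice it was 1 with the mean of probe sets, with separate fits and with quantile normalization. It was 2 with the component, 3 with 6 levels and 0 to 3 over omissions (77 to 188 of all genes). For diet in aged mice it was 0 with the mean of probe sets and without T20. It was 4 with quantile normalization and 2 to 4 over omissions (201 to 311 of all genes). The rhythm difference for diet in aged mice was called for 1 member with 6 levels. Where no value for all genes is given, a change of the members cannot be told from a change of all genes. The cause of these changes was not tested. The interaction has no separate fit of 2 arms.

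Replicate numbers are shared between diets, but same-numbered arrays did not deviate together (r from -0.10 to 0.18 in adult and -0.23 to 0.29 in aged pairs). With a replicate block the rhythmic members numbered 4 and 13 in the adult arms (control, CR) and 8 and 9 in the aged arms. With that block 5 called values were lost, and level counts were 0, 1, 0 and 2. Counts of all genes with the block are not given here.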
